A study of Homo sapiens with 6 samples.

Results

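Syndecans and glypicans are the main cell surface proteoglycans that carry heparan sulfate, and the genes for their core proteins were followed here in cultured colorectal cancer cells after knockdown of ZEB1. The group was set by name as 10 genes, which were SDC1, SDC2, SDC3 and SDC4 of the syndecan family, GPC1, GPC2, GPC3, GPC4 and GPC6 of the glypican family, and HSPG2, the gene for perlecan. Of these, 9 were found by their gene name among the 32029 genes counted in every culture, and GPC6 was not analysed here. The libraries came from 6 cultures of SW480, an established human colorectal adenocarcinoma line, taken 48 h after transfection. The siNC group (3 cultures, genotype given as WT) received a control siRNA, and the siZEB1 group (3 cultures, genotype given as ZEB1 knockdown) received siRNA against the transcription factor ZEB1. Both groups came from 1 cell line and 1 time point, and the sources used here give neither the siRNA sequences nor whether several siRNAs were mixed. The study calls the cultures of a group biological replicates, and nothing further says how they were kept apart, so the p-values measure the spread between these cultures.

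Each core protein is made in the secretory pathway and receives long sugar chains there, which enzymes then sulfate in patterns that bind growth factors, Wnt proteins and matrix proteins. Syndecans span the membrane and reach the actin cytoskeleton through PDZ-domain proteins, glypicans are held to the outer membrane by a lipid anchor, and perlecan is secreted into basement membranes. In intestinal epithelium syndecan-1 is a long-known surface proteoglycan of the basolateral membrane, and ZEB1 is a zinc finger factor known to bind E-boxes of the CACCTG type at epithelial genes.

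Sequencing gave between 19040636 and 22357633 counted reads per culture. ZEB1 itself had 1247, 1276 and 908 reads in the siNC cultures and 136, 132 and 162 in the siZEB1 cultures, so it was lower in the cultures labelled as knockdown. Of 8 colorectal epithelial markers, 4 were higher and 1 was lower in siZEB1 at an adjusted p under 0.05 (edgeR). That is 62.5%, beside 40.2% of all tested genes (19% higher, 21.2% lower). Their summed level ran from 4816 to 5438 CPM (reads of a gene relative to the library's size) in siNC and from 5361 to 6030 CPM in siZEB1. Fibroblast markers summed to 13.3 to 15.3 CPM over the 6 cultures, endothelial markers to 1.62 to 2.95 CPM and immune markers to 0.894 to 1.75 CPM, with LUM at 0 in the 3 siNC cultures. These sums leave out 1 of 6 fibroblast markers (DCN), 2 of 5 endothelial (CDH5, KDR) and 1 of 5 immune (PTPRC), which were not analysed here. Among the fibroblast markers PDGFRB was higher in siZEB1, at 3.98 ± 0.310 and 5.33 ± 0.222 CPM (SD, n = 3 each; adjusted p = 0.0281, edgeR), a call lost without siNC 1, siZEB1 1 or siZEB1 3 (adjusted p up to 0.0979). The epithelial markers EPCAM, KRT19, CDH1 and VIL1 were those higher and CDX2 the one lower, and their part in the results was not tested. Fewer cells of a type and less RNA per cell cannot be told apart in such bulk RNA.

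The promoter sequences of the 4 members that changed are shown because the knocked-down factor is known to bind a short motif. They are the 250 bases before the RefSeq start site on GRCh38.p14, written on the strand of the gene, with the motif CACCTG or its reverse complement CAGGTG in capitals. SDC3 lies at chr1:30908759-30909008 (minus strand), SDC1 at chr2:20225476-20225725 (minus strand), SDC4 at chr20:45348425-45348674 (minus strand) and GPC4 at chrX:133415490-133415739 (minus strand).
SDC3: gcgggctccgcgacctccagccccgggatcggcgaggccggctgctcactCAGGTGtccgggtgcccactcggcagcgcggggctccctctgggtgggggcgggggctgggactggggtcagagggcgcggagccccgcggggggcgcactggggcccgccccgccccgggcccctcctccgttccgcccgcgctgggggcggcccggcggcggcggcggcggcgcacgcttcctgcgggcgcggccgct
SDC1: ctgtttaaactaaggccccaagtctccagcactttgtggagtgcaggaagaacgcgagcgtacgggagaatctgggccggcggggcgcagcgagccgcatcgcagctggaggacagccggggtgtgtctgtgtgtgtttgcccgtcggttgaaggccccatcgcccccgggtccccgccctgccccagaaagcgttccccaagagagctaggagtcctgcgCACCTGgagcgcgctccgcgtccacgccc
SDC4: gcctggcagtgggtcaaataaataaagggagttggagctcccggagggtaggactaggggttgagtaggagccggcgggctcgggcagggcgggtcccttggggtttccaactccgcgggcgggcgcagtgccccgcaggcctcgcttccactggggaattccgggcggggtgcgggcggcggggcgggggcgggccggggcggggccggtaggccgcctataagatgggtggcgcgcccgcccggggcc
GPC4: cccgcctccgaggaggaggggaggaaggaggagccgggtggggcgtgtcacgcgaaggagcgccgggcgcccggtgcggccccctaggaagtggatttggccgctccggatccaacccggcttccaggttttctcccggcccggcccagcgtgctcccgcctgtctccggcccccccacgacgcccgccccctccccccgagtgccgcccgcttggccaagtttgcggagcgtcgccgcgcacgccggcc
SDC3, which was lower in siZEB1, holds CAGGTG from 200 to 195 bases before its start, and SDC1, which was higher, holds CACCTG from 29 to 24 bases before its start. A second listed start of SDC1 has a window at chr2:20225131-20225380 with 0 matches. SDC4 and GPC4, which moved in opposite directions, have 0 matches, as do the windows of GPC1, GPC2 and HSPG2. Of all 35116 RefSeq promoter windows, 17.49% hold a match, and among the 15184 windows of tested genes 16.06% do. A match is a stretch of letters and says nothing of binding in these cells.

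Of the 9 core genes, SDC4 and SDC1 rose after ZEB1 knockdown and SDC3 and GPC4 fell. SDC4 rose 2.09-fold and SDC3 fell to a fold of 0.421 of its control level, so that 2 members of the same family moved far apart in opposite directions. GPC1, GPC2 and HSPG2 were not called, and SDC2 and GPC3 had too few reads for a test. Levels are CPM after TMM normalization, and siZEB1 was set against siNC by the two-sided quasi-likelihood test of edgeR on the counts of 14996 genes, with a call at an adjusted p (Benjamini-Hochberg, over those genes) under 0.05. Thus 7 of the 9 genes were tested and 4 were called, 2 higher and 2 lower. Over all tested genes 40.2% were called, 19% higher and 21.2% lower, and the members' 57.1% of 7 genes is not a result about them beside that share. The groups did not overlap for SDC1, SDC3, SDC4 and GPC4, as for 49.5% of all tested genes. The median absolute log2 fold change over all tested genes was 0.25.

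**Figure D1:**
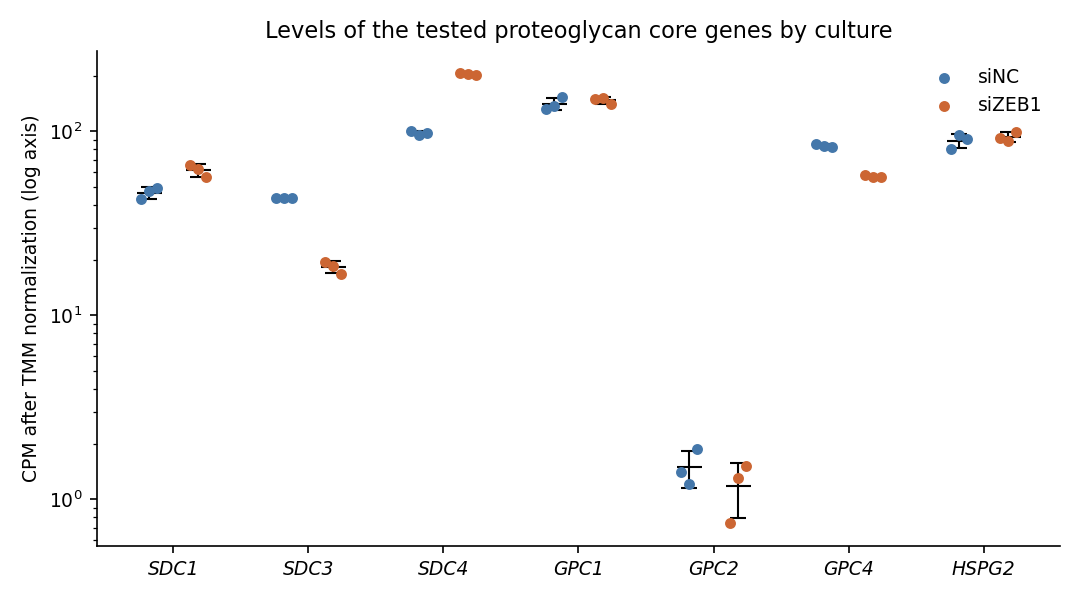
Level of each tested core gene in each culture, as CPM after TMM normalization on a log axis, with points for the 3 siNC (blue) and 3 siZEB1 (orange) cultures and black bars for the mean and SD. The groups are apart for SDC1, SDC3, SDC4 and GPC4 and overlap for GPC1, GPC2 and HSPG2.

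SDC4 encodes syndecan-4, the syndecan of focal adhesions, which acts with integrins and protein kinase C. Its counts were 2144, 2146 and 1883 in the siNC cultures and 3912, 3947 and 3876 in the siZEB1 cultures. As CPM these were 101, 95.8 and 97.7 in siNC and 207, 205 and 203 in siZEB1, so that every siZEB1 culture lay far above the highest siNC culture. The mean was 98.1 ± 2.53 CPM in siNC and 205.0 ± 2.36 CPM in siZEB1 (SD, n = 3 each). On the log2 scale SDC4 rose by 1.06 (SE 0.058, adjusted p = 4.43e-10, edgeR). Its 95% interval on the linear scale was 1.92-fold to 2.28-fold. SDC4 lies on chromosome 20 from 45325288 to 45348424 (ENSG00000124145), and 0.0% of its exonic bases are shared with another annotated gene.

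SDC1 encodes syndecan-1, the main syndecan of epithelia. It had 911, 1059 and 956 reads in siNC and 1244, 1198 and 1076 in siZEB1, or 42.8, 47.3 and 49.6 CPM against 65.9, 62.3 and 56.2 CPM. The 2 groups did not overlap, but the gap between the highest siNC and the lowest siZEB1 culture was smaller than the range within either group. The mean was 46.6 ± 3.43 CPM in siNC and 61.5 ± 4.89 CPM in siZEB1 (SD, n = 3 each). On the log2 scale SDC1 rose by 0.40 (SE 0.079, adjusted p = 0.000613, edgeR). Leaving out 1 culture at a time gave values from 0.34 to 0.46, with the largest adjusted p at 0.00825. SDC1 (ENSG00000115884) lies on chromosome 2 from 20200797 to 20225433.

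SDC3 encodes syndecan-3, best known from neurons and developing muscle and cartilage. Its counts were 925, 970 and 843 with siNC and 368, 357 and 322 with siZEB1. The siNC levels of 43.5, 43.3 and 43.7 CPM were nearly equal, and the siZEB1 levels of 19.5, 18.6 and 16.8 CPM all lay below them. On the log2 scale SDC3 fell by 1.25 (SE 0.080, adjusted p = 2.95e-09, edgeR), with a 95% interval of the fold from 0.374 to 0.473. The study itself reports lower SDC3 in ZEB1-depleted cells, among the genes that it relates to glycolysis. Its RNA-seq is that of these cultures, so the direction found here is not independent evidence. For the set of genes in which it names SDC3, the study also cites a comparison of qRT-PCR with RNA-seq in SW480 cells. Those qRT-PCR values were not examined here. SDC3 (ENSG00000162512) lies on chromosome 1 from 30869467 to 30908761.

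SDC2 encodes syndecan-2, the syndecan typical of fibroblasts and other mesenchymal cells. It had 0, 0 and 1 reads with siNC and 1, 0 and 0 reads with siZEB1, that is 1 read per group. With 3 reads taken as the limit that a count of 0 allows, the count of 0 in the shallowest culture allows a level up to 0.158 CPM. No fold is given.

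The glypican GPC1 had the most reads of any member in the siNC cultures, with 2812, 3091 and 2953, and had 2848, 2926 and 2690 in siZEB1. Glypican-1 is a widely expressed growth factor co-receptor. Its levels of 132, 138 and 153 CPM in siNC and 151, 152 and 141 CPM in siZEB1 overlapped, and the log2 fold change was 0.067 (SE 0.067, adjusted p = 0.454, edgeR). The 95% interval of its fold, from 0.95 to 1.16, leaves room for small changes in either direction. With 1 culture left out the log2 fold change ran from 0.021 (without siNC 1) to 0.13 (without siNC 3).

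GPC4 was the glypican that fell. Glypican-4 takes part in Wnt and FGF signalling. It had 1817, 1879 and 1581 reads in siNC against 1092, 1083 and 1079 in siZEB1, or 85.5, 83.9 and 82.0 CPM against 57.8, 56.3 and 56.4 CPM, with a wide gap between the groups. The mean went from 83.8 ± 1.72 to 56.8 ± 0.863 CPM (SD, n = 3 each), and on the log2 scale it fell by 0.56 (SE 0.064, adjusted p = 2.46e-06, edgeR). GPC4 (ENSG00000076716) lies on chromosome X from 133300103 to 133415490, and GPC3 lies on the same chromosome and strand from 133535745 to 133985895. GPC3, an oncofetal glypican of liver tumours, had 0, 0 and 2 reads in siNC and 0 in each siZEB1 culture.

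GPC2, a glypican of the developing nervous system, was low, with 30, 27 and 36 reads in siNC and 14, 25 and 29 in siZEB1. The groups overlapped, the log2 fold change was -0.32 (SE 0.30, adjusted p = 0.427, edgeR), and its interval from -0.96 to 0.32 is too wide to tell a fall from a rise. With 1 culture left out it ran from -0.53 (without siZEB1 3) to -0.075 (without siZEB1 1). GPC5, a glypican outside the named group, had 0 reads in each siNC culture and 3, 0 and 1 in siZEB1.

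HSPG2 encodes perlecan, the large proteoglycan of basement membranes. It had 1704, 2138 and 1752 reads in siNC and 1731, 1716 and 1906 in siZEB1, with means of 88.8 ± 7.87 and 93.5 ± 5.41 CPM (SD, n = 3 each). The groups overlapped, and the log2 fold change was 0.074 (SE 0.075, adjusted p = 0.460, edgeR) and an interval of the fold from 0.944 to 1.17. With 1 culture left out the log2 fold change ran from 0.0032 (without siNC 1) to 0.13 (without siNC 2). Of the exonic bases of HSPG2, 11.7% overlap LDLRAD2 on the opposite strand, and the strand setting of the counting is not given in the sources used here, so its count may include reads of that gene.

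**Figure D2:**
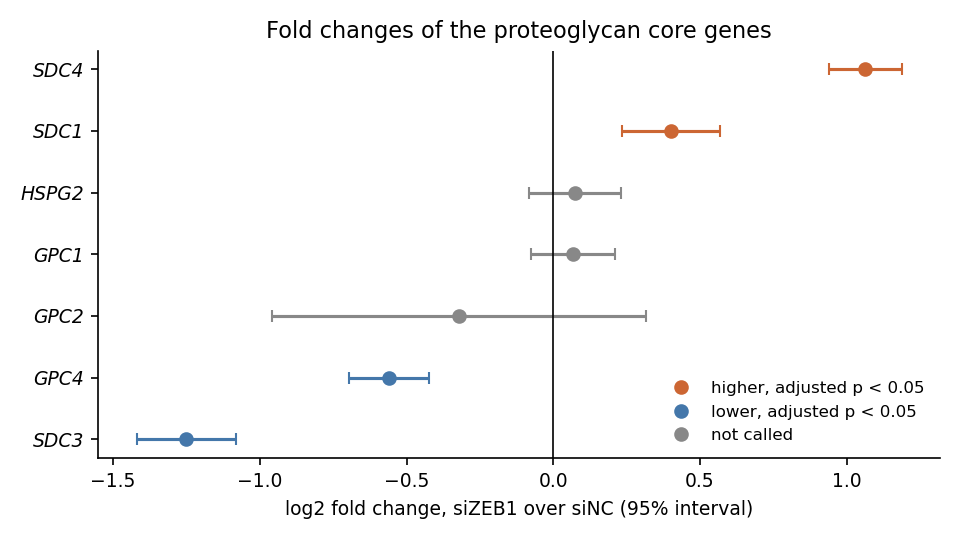
Log2 fold change of siZEB1 over siNC for the 7 tested core genes, with bars for the 95% interval derived from the edgeR test and colours for the call. SDC4 and SDC1 lie above 0, GPC4 and SDC3 lie below 0, and the intervals of HSPG2, GPC1 and GPC2 cross 0.

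A fold change limit is used by the study with one p limit in its results and a stricter one in its methods. The looser pair, a fold change above 1.5 with an unadjusted p under 0.05, is met by 16.6% of the tested genes, 7.21% higher and 9.35% lower, and of the members by SDC4 (higher) and SDC3 (lower), which also pass the stricter p limit of 0.001. GPC4 just missed that limit, at 1.47-fold lower, and SDC1 was 1.32-fold higher.

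The make-up of the syndecan family shifted with the knockdown. The share of SDC4 in the syndecan reads was 53.9%, 51.4% and 51.1% in siNC and 70.8%, 71.7% and 73.5% in siZEB1, a mean rise of 19.9 percentage points. That of SDC3 was 23.2%, 23.2% and 22.9% in siNC against 6.66%, 6.49% and 6.11% in siZEB1, a mean change of -16.7 points. The share of SDC1 moved by -3.17 points, from 24.7% ± 1.63 to 21.6% ± 1.07 (SD, n = 3 each), although its own level rose, because the sum of the family grew more. Each of these shares separated the groups with an exact permutation p of 0.1 (two-sided), the smallest that 3 cultures against 3 allow, and 0.17 when adjusted over the 17 shares compared. The widest Wilson 95% half-width of a share in 1 culture was 1.61 points for SDC4 and 1.41 points for SDC1, which covers counting error only. The groups of SDC1 came closer than that, at 22.9% in siNC 1 and 22.5% in siZEB1 1.

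The ratio of SDC4 to SDC3 reads does not depend on library scaling. It was 2.32, 2.21 and 2.23 in the siNC cultures and 10.63, 11.06 and 12.04 in the siZEB1 cultures, so that no siZEB1 culture came near the control values. The mean ratio was 4.98-fold higher in siZEB1 (exact permutation p = 0.1, two-sided, and 0.14 adjusted over 21 pairs of members).

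In the glypican family, GPC1 made up 60.4%, 61.9% and 64.6% of the reads in siNC and 72.0%, 72.5% and 70.8% in siZEB1, while GPC4 made up 39.0%, 37.6% and 34.6% against 27.6%, 26.8% and 28.4%. Both shares separated the groups (exact permutation p = 0.1, two-sided), and the share of GPC2 stayed under 1% with overlapping groups (exact p = 0.6). Here the share of GPC1 was higher although its level was not called, as the level of GPC4 fell.

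**Figure D3:**
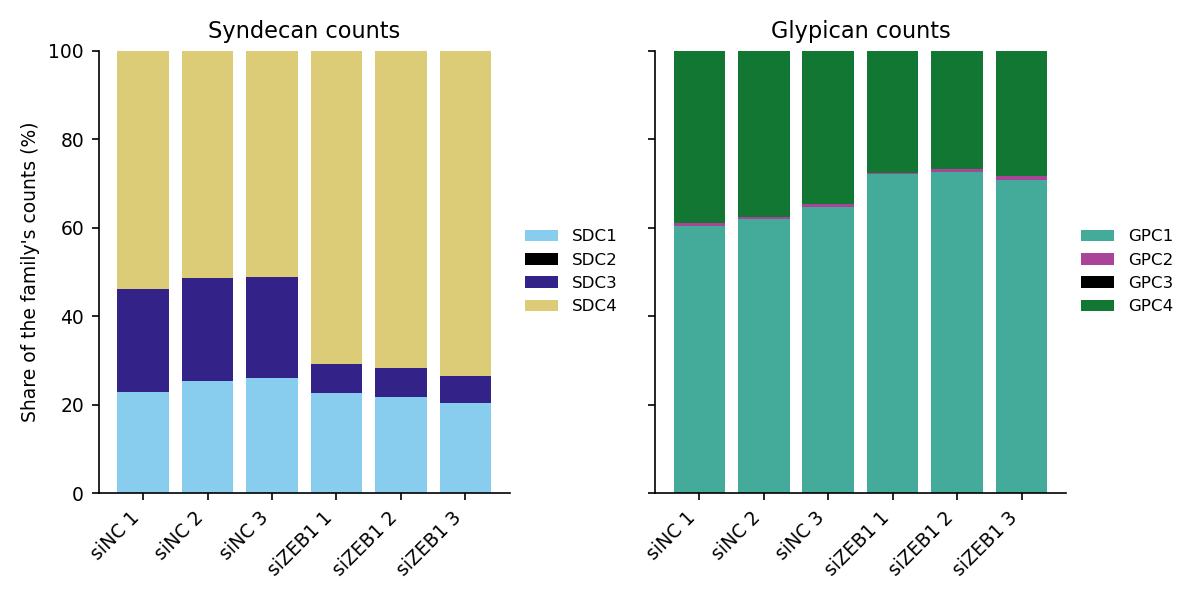
Share of each member in the counts of its family (%), stacked for each culture, with syndecans on the left and glypicans on the right. In the siZEB1 cultures SDC4 takes 70.8% to 73.5% of the syndecan reads against 51.1% to 53.9% in siNC, and SDC3 shrinks to under 7%.

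Summed over the family, the syndecans gave 187, 186 and 191 CPM in siNC and 293, 286 and 276 CPM in siZEB1, a change of 51.3%. The glypicans gave 219, 223 and 237 CPM in siNC and 209, 210 and 198 CPM in siZEB1, a change of -9.09%. All 9 members together gave 504 ± 16.4 CPM in siNC and 584 ± 10.1 CPM in siZEB1 (SD, n = 3 each). The groups did not overlap in any of the 3 sums, with an exact permutation p of 0.1 (two-sided), also when adjusted over the 3.

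Read counts favour long transcripts, so the order of the members was taken per kb of exon. In siNC it ran SDC4 (37.5 CPM per kb), GPC1 (21.7), GPC4 (16.9), SDC1 (13.0), SDC3 (6.16), HSPG2 (4.91) and GPC2 (0.390), with SDC2 and GPC3 near 0. No neighbours among these 7 overlapped in their ranges over 3 cultures, whereas SDC2 and GPC3 did. In siZEB1 SDC4 stood at 78.5 CPM per kb and GPC1 at 22.7, and then came SDC1 (17.1) ahead of GPC4 (11.5) and HSPG2 (5.17) ahead of SDC3 (2.59), so that 2 pairs of neighbours had changed places. Per kb, SDC4 made up 66.3% of the syndecan signal in siNC and 80.0% in siZEB1, and SDC3 made up 10.9% and 2.64%.

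**Figure D4:**
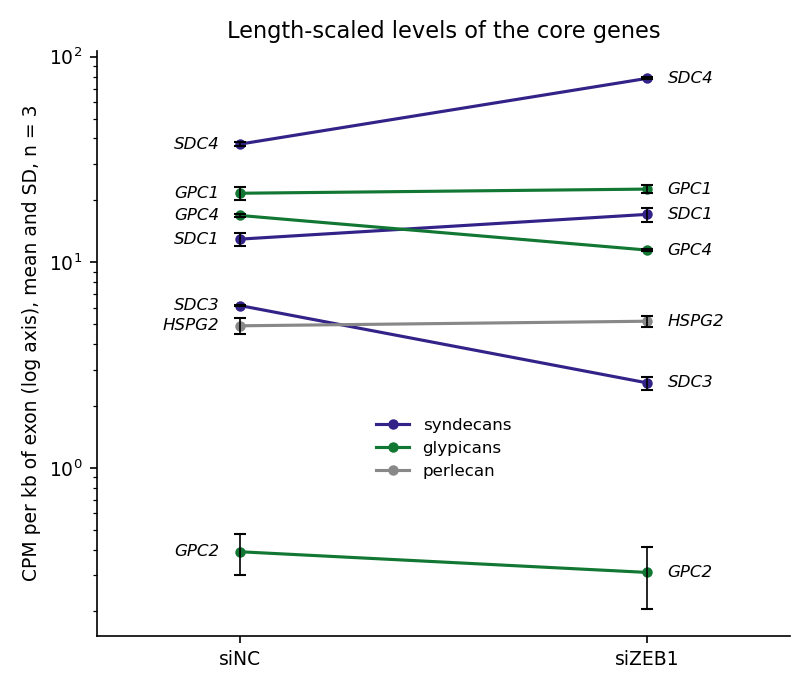
Mean level of each tested core gene per kb of exon (CPM per kb, log axis) in siNC and siZEB1, with bars for the SD over 3 cultures. The lines of SDC1 and GPC4 cross, as do those of SDC3 and HSPG2, and SDC4 is highest in both groups.

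The genes with profiles most like that of SDC3, by Euclidean distance of log2 CPM centred on each gene's mean over 6 cultures, were RALY (distance 0.118), KCNJ8 (0.144) and SIRPA (0.149) among 14983 genes. Closest to SDC4 were VOPP1 (0.101), PKP3 (0.102) and GOLGA2 (0.121). With 2 groups such likeness mainly reflects a similar fold change, which was 1.04 on the log2 scale for VOPP1 and -1.23 for RALY.

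A heparan sulfate chain needs a linker, a polymerase and a set of modifying enzymes. Of 12 genes for linker and chain synthesis, 10 were tested, 8 were lower and 1 was higher. That is 90% called, beside 40.2% of all tested genes (19% higher, 21.2% lower). Their median log2 fold change was -0.28 against -0.0055 over all tested genes. Most of these changes were small. At a fold change above 1.5 with an unadjusted p under 0.05 (edgeR), 2 were lower and 0 higher, beside 16.6% of all tested genes. With each culture left out in turn, 6 to 8 of these genes were lower. The fall was largest for PXYLP1, the phosphatase of the linker xylose, at -1.05 (SE 0.17, adjusted p = 0.000106, edgeR), where the group means were 5.35 and 2.59 CPM. B4GALT7, which adds the first galactose of the linker, fell by 0.84, and FAM20B, the linker xylose kinase, fell by 0.50. The chain polymerases changed less, with EXT1 at -0.27 (adjusted p = 0.00234) and EXT2 at -0.20 (adjusted p = 0.0216). The 1 rise was in EXTL2, a transferase that can end the chain, at 0.21 (adjusted p = 0.0446, edgeR). Without siNC 2, siZEB1 1, siZEB1 2 or siZEB1 3 the call of EXT2 was lost (adjusted p 0.126, 0.0504, 0.0813 and 0.0532). That of EXTL2 was lost without siNC 2, siNC 3 or any siZEB1 culture (adjusted p 0.0847, 0.140, 0.0567, 0.119 and 0.120). It was also lost under DESeq2 (0.0531), and in edgeR with total library size only (0.0566) and with no filter (0.092).

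Of 18 modifying enzymes listed, 14 were found and 4 were not analysed here. Of the 6 tested, 3 were lower and 1 higher (2 to 4 lower with 1 culture left out). The share called was 66.7%, beside 40.2% of all tested genes (19% higher, 21.2% lower). GLCE, the epimerase that turns glucuronic into iduronic acid, fell from 73.2, 72.0 and 62.7 CPM in siNC to 30.9, 29.1 and 28.1 CPM in siZEB1, with -1.24 on the log2 scale (SE 0.079, adjusted p = 2.71e-09, edgeR). HS2ST1, which sulfates that iduronic acid, rose from 43.6, 38.3 and 39.3 CPM to 61.6, 57.6 and 64.6 CPM, by 0.60 on the log2 scale (SE 0.076, adjusted p = 7.59e-06, edgeR). These 2 enzymes, which act in sequence on the same residue, moved in opposite directions with no overlap between groups. HS2ST1 shares 9.69% of its exonic bases with AC093155.3 on the same strand. SULF2, the surface sulfatase that trims 6-O-sulfates, fell by 0.88, from 22.2 ± 0.516 to 12.1 ± 0.607 CPM (SD, n = 3 each). NDST1, the main N-sulfating enzyme, was at -0.20 (adjusted p = 0.0222, edgeR), a call lost without siNC 2, siZEB1 2 or siZEB1 3 (adjusted p 0.105, 0.104 and 0.0532), and HS6ST1 was at 0.13 (adjusted p = 0.179). NDST2 had 2 reads in all, and a same-strand gene of the annotation covers 82.9% of its exonic bases, which makes that count uncertain.

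**Figure D5:**
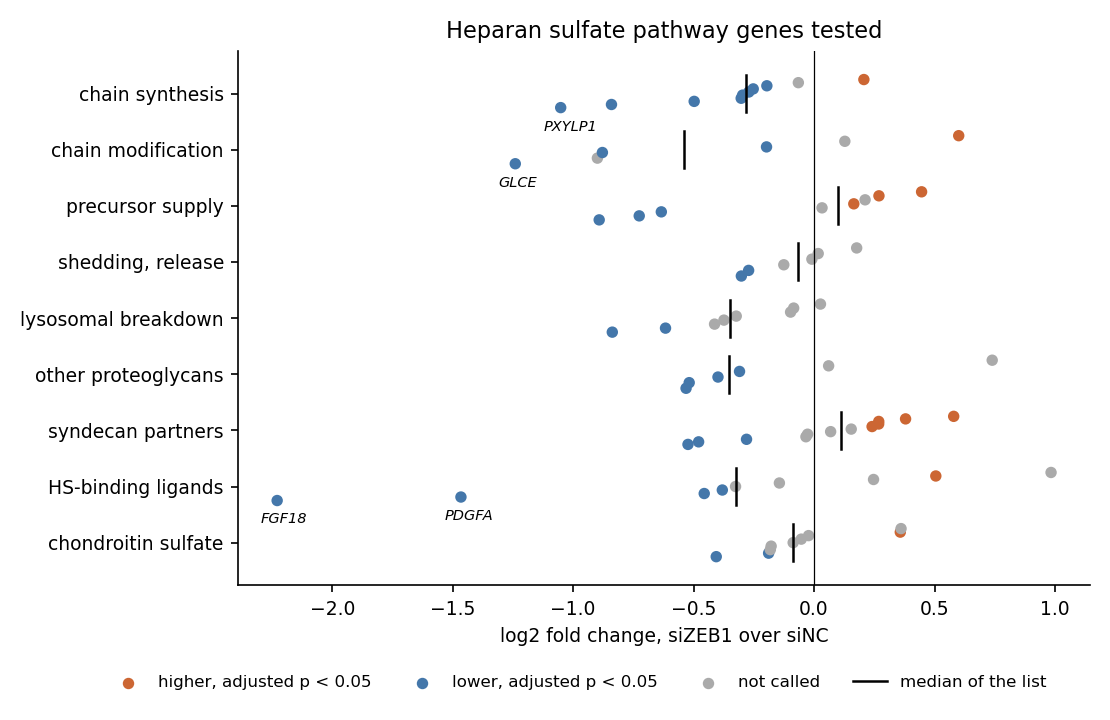
Log2 fold change of siZEB1 over siNC for the 74 tested genes of the 9 pathway lists, 1 row per list, coloured by call, with a black line at the median of each list. Chain synthesis and chain modification lie mostly left of 0, with medians of -0.28 and -0.54, and precursor supply is split.

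The supply of sugar and sulfate donors was split, with 3 of 8 tested genes lower and 3 higher (75% called, beside 40.2% of all tested genes). UXS1, which makes UDP-xylose for the linker, fell by 0.73, and the PAPS synthases PAPSS1 and PAPSS2 fell by 0.63 and 0.89. The PAPS transporter genes SLC35B3 and SLC35B2 were at 0.45 and 0.27 and UGP2, which makes UDP-glucose, at 0.17. SLC35B2 lost its call without siNC 2, siZEB1 1 or siZEB1 2 (adjusted p 0.0678, 0.0592 and 0.0787, edgeR). UGP2 lost its call without siNC 2, siNC 3 or any siZEB1 culture (adjusted p 0.161, 0.0668, 0.134, 0.0586 and 0.0808), and with no filter (0.0837). Thus 1 of the 3 rises remained in the fits without siNC 2, siZEB1 1 or siZEB1 2. Over all fits with 1 culture left out, the list held 1 to 4 higher genes.

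Of 6 tested genes for shedding or release of the core proteins, 2 were lower, so 33.3% were called, under the 40.2% of all tested genes. They were NOTUM, a secreted hydrolase first described as cutting glypican anchors, at -0.30 (adjusted p = 0.00559, edgeR), and ADAM10, a syndecan sheddase, at -0.27 (adjusted p = 0.0118, edgeR). The ADAM10 groups overlapped, and its call was lost without siNC 1, siZEB1 1 or siZEB1 2 (adjusted p 0.0549, 0.0728 and 0.0644). ADAM17 was at 0.017 (adjusted p = 0.901) and heparanase (HPSE) at -0.13 (adjusted p = 0.803), neither called. MMP14, named after its values were seen, was at 0.18 (adjusted p = 0.0544) and was called higher under DESeq2, and the list held 1 higher gene without siNC 3 or siZEB1 3. Of 8 lysosomal degradation genes tested, IDUA at -0.84 and ARSG at -0.62 were lower, which is 25% called, again under 40.2%. The ARSG call was lost without siNC 1 or siZEB1 2 (adjusted p 0.0759 and 0.0969), and the list then held 1 lower gene, but 4 without siZEB1 3. Exons on the opposite strand overlap 14.8% of ARSG, 13.6% of ADAM17 and 13.4% of IDUA.

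Among 6 other tested proteins that can carry heparan sulfate, 4 were lower (66.7% called, beside 40.2% of all tested genes). The lower ones were AGRN (agrin) at -0.31, COL18A1 at -0.40, TGFBR3 at -0.53 and NRP1 at -0.52, and CD44 was at 0.061 (adjusted p = 0.436, edgeR). The sixth, SPOCK2 (testican-2), named after its values were seen, went the other way with the largest value of the list, 0.74 (SE 0.33, adjusted p = 0.0887, edgeR), on 42 reads in siNC and 64 in siZEB1, and was not called. COL18A1 has 16.4% of its exonic bases under SLC19A1 on the opposite strand. Thus agrin and collagen XVIII, which share the basement membrane with perlecan, fell in siZEB1, whereas HSPG2 was not called.

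Of 12 partners of the syndecan tails, 5 were higher and 3 lower (66.7% called, beside 40.2% of all tested genes). SDCBP (syntenin), the PDZ adaptor of syndecans, rose by 0.27, SYNJ2BP by 0.58 and the membrane linker EZR by 0.38. ACTN4 fell by 0.52 and CASK by 0.48, and PRKCA, the kinase that syndecan-4 engages, was at -0.28, a call lost without siNC 2 (adjusted p = 0.0526). SYNJ2BP shares 10.1% of its exonic bases with a readthrough gene on the same strand, and CAPN12 on the opposite strand overlaps 14.2% of ACTN4. Of 9 tested ligands, 4 were lower and 1 higher (55.6% called), with FGF18 at -2.23, PDGFA at -1.47, FGF19 at -0.46 and VEGFA at 0.51. Of 9 genes for chondroitin sulfate, the other chain that syndecan-1 and syndecan-4 can carry, 2 were lower (CHSY1 at -0.41, CHPF at -0.19) and CHST3 was higher at 0.36, so 33.3% were called. CHPF lost its call without siNC 2, siNC 3, siZEB1 1 or siZEB1 3 (adjusted p 0.0974, 0.0855, 0.0562 and 0.135), and without siZEB1 3 the ligand and chondroitin lists each held 2 higher genes.

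Over the 9 lists 31 of the 74 tested genes were lower and 12 were higher, which is 58.1% called, and the median log2 fold change was -0.18. By list, the share called was 90% for chain synthesis, 75% for precursor supply, 66.7% each for chain modification, other proteoglycans and syndecan partners, 55.6% for ligands, 33.3% each for release and chondroitin sulfate, and 25% for lysosomal breakdown, beside 40.2% over all tested genes. The last 3 lists lie below that share, and each share rests on 12 or fewer genes.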

How the data were processed

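RNA-seq of 6 SW480 cultures (3 siNC, 3 siZEB1) was analysed from the read counts per gene that the authors deposited, which are whole numbers without normalization. The submitters' processing notes name Trimmomatic, HISAT2, SAMtools, featureCounts and the build hg38, and versions, annotation and strand setting are not given in the sources used here. Genes kept by filterByExpr (14996) were normalized by TMM and tested with edgeR 4.0.16 (quasi-likelihood, two-sided) in R 4.3.3, called at an adjusted p (Benjamini-Hochberg) under 0.05. CPM use the TMM library sizes. Exonic lengths, coordinates and overlaps come from GENCODE 29, which holds 31059 of the 32029 genes, and promoters from RefSeq. Shares, sums and ratios were compared by exact permutation (scipy 1.17.1). The biological coefficient of variation was 6.58%. Replicates differed by 2.28 to 9.72 times counting noise (chi-square over degrees of freedom), so none is a copy. Alternatives were DESeq2 1.42.0, other scalings, filters and thresholds, a replicate block and leaving out each culture. Named genes were the members, ZEB1, 16 genes fixed by name, up to 3 largest called rises and falls of each list, and nearest profiles. The members, lists and tests were chosen with earlier results of these data known.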

Additional observations from a re-analysis of the deposited data

How the results depend on the processing

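All 84 alternative fold changes of the 7 tested members, 12 settings each, kept their direction and their side of the threshold. At the 1.5-fold limit of the study with an unadjusted p under 0.05, as in its results, the calls over all genes dropped to 1081 higher and 1402 lower, and at p under 0.001, as in its methods, to 678 and 1004. Under both limits 1 member was higher and 1 lower. Of the 74 tested genes of the 9 lists, 3 were higher and 12 lower at the first limit and 1 and 9 at the second. Over all tested genes 16.6% met the first limit, 7.21% higher and 9.35% lower. The lists thus lie much nearer to all genes at this limit than by adjusted p alone, where 58.1% against 40.2% were called. Leaving out each culture in turn gave 2305 to 2928 higher and 2637 to 3311 lower genes, and 8 to 13 higher and 26 to 32 lower genes of the lists. The difference in the share of GPC2, siZEB1 minus siNC, ranged from -0.170 to 0.0344 percentage points and changed sign without siZEB1 1, and the cause was not tested. The fold change of ADAM17, not called, ranged from -0.0811 to 0.0877 and was negative without siNC 3 (-0.0811) or siZEB1 3 (-0.0586), and that of HPSE ranged from -0.284 to 0.139 and was positive without siZEB1 3. Of 503 alternative fold changes of 42 other named genes, 39 lost a call, in 9 genes. Same-numbered cultures did not deviate together (correlations -0.249, -0.296 and -0.572). Cultures of other numbers had correlations from -0.353 (siNC 1 with siZEB1 2) to 0.488 (siNC 3 with siZEB1 2), and the cause was not tested. No culture correlated best with its own number, so the numbers were not taken as pairs. With the replicate block 2289 genes were higher and 2679 lower, 2 members were higher and 2 lower, and CHPF, EXT2, EXTL2, NDST1 and UGP2 lost their calls (adjusted p 0.106, 0.102, 0.123, 0.104 and 0.146). Depth limits GPC2, SDC2 and GPC3, where few reads allow large changes to go unseen.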
